A study of Homo sapiens with 3 samples.

Results

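The keratin family was described in stratified cultures of iHCE, a human corneal epithelial cell line immortalized with SV40, from every row of the value table whose probe set is annotated to a single gene with a symbol of KRT and a number. A probe set is a group of short array probes that report on 1 transcript. The rule took 36 probe sets of 32 keratin genes, out of 19065 probe sets of 11963 genes. Of the 54 keratin genes listed from RefSeq the other 22 had no probe set annotated to them alone in the annotation used and were not analysed here: *KRT6A*, *KRT6B*, *KRT6C*, *KRT17*, *KRT25* to *KRT28*, *KRT34*, *KRT39*, *KRT40*, *KRT71* to *KRT74*, *KRT77* to *KRT82* and *KRT86*. Keratin-associated protein genes (KRTAP) and KRTCAP genes were left out.

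Keratins form the intermediate filaments of epithelial cells, and each filament is built from paired chains of an acidic type I and a basic type II keratin. Simple, single-layered epithelia use *KRT8* and *KRT18* with *KRT7*, *KRT19* or *KRT20*, the basal layer of stratified epithelia uses *KRT5* and *KRT14*, and layers above it use other pairs that depend on the tissue. The differentiated corneal epithelium is known for the pair *KRT3* and *KRT12*, and a further set of keratins makes the hair shaft and the sheath of the hair root.

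The only group in the series was iHCE, at passages 22 to 23. The cells were seeded on collagen-coated filters in medium with fetal bovine serum, insulin, cholera toxin, EGF and DMSO, were first covered with medium, and then received ascorbic acid and air on the upper side, where they form several layers. There were 3 independent replicate cultures, called 1, 2 and 3, and the RNA of each went onto its own Affymetrix human expression array. Their transepithelial electrical resistance (TEER), which rises as cells seal against each other, was 489, 439 and 468 Ω × cm2. All 3 cultures are of a single line that carries the viral oncogene, and the corneal tissue (tHCE) that the study set beside it was not analysed here, so no keratin was compared between cells and tissue.

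The values are log2 expression values. The background was taken from a panel of 59 measured genes that are specific to retina, liver, pancreas and other tissues. An array's threshold was the 95th percentile of the panel, and a gene or probe set was called only if it passed the threshold in every culture. The thresholds came to 7.33 in culture 1, 7.04 in culture 2 and 7.26 in culture 3, and the array medians to 6.37, 6.38 and 6.37. Of the panel genes themselves 2 were above background. Few of them can be, since the threshold is their own 95th percentile, so this count is no check of the rule. Probe sets differ in affinity, so each value was read against the threshold and not against the value of any other single gene. The threshold itself comes from probe sets of other genes, so differences in affinity still enter each call.

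Of the simple epithelial keratins 4 of 5 measured genes were above background in iHCE, while the corneal pair, the basal pair of stratified epithelia and all 11 measured hair shaft keratins were not above it on any array. Above background were *KRT18*, *KRT19*, *KRT7* and *KRT8* of the simple group and *KRT10*, a keratin of the upper layers of the epidermis. These were 5 of 32 keratin genes (15.6%), against 42.0% of all genes. By probe set they were 7 of 36 (19.4%), against 33.7% of all single-gene probe sets. Each gene was read at its probe set of highest mean, which favours genes with several. Only 3 keratin genes had several, with 36 probe sets for 32 genes, against 19065 for 11963 in all. The part of this in the difference between genes was not tested. The difference in share depends on the threshold: with the highest panel value in its place 5 of 32 keratin genes were still called, but all genes fell to 14.7%, so that the keratin share was no longer below that of all genes. The other 27 keratin genes were above the threshold on 0 of the 3 arrays, with an adjusted p of 1 for each (limma, one-sided). That p adds nothing to the call, since a one-sided test of values under a threshold cannot give a small one. No keratin was above the threshold on only 1 or 2 arrays, a position that 929 of all genes took. In a mixed cell layer, fewer cells that hold a transcript and less of it per cell cannot be told apart.

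**Figure D1:**
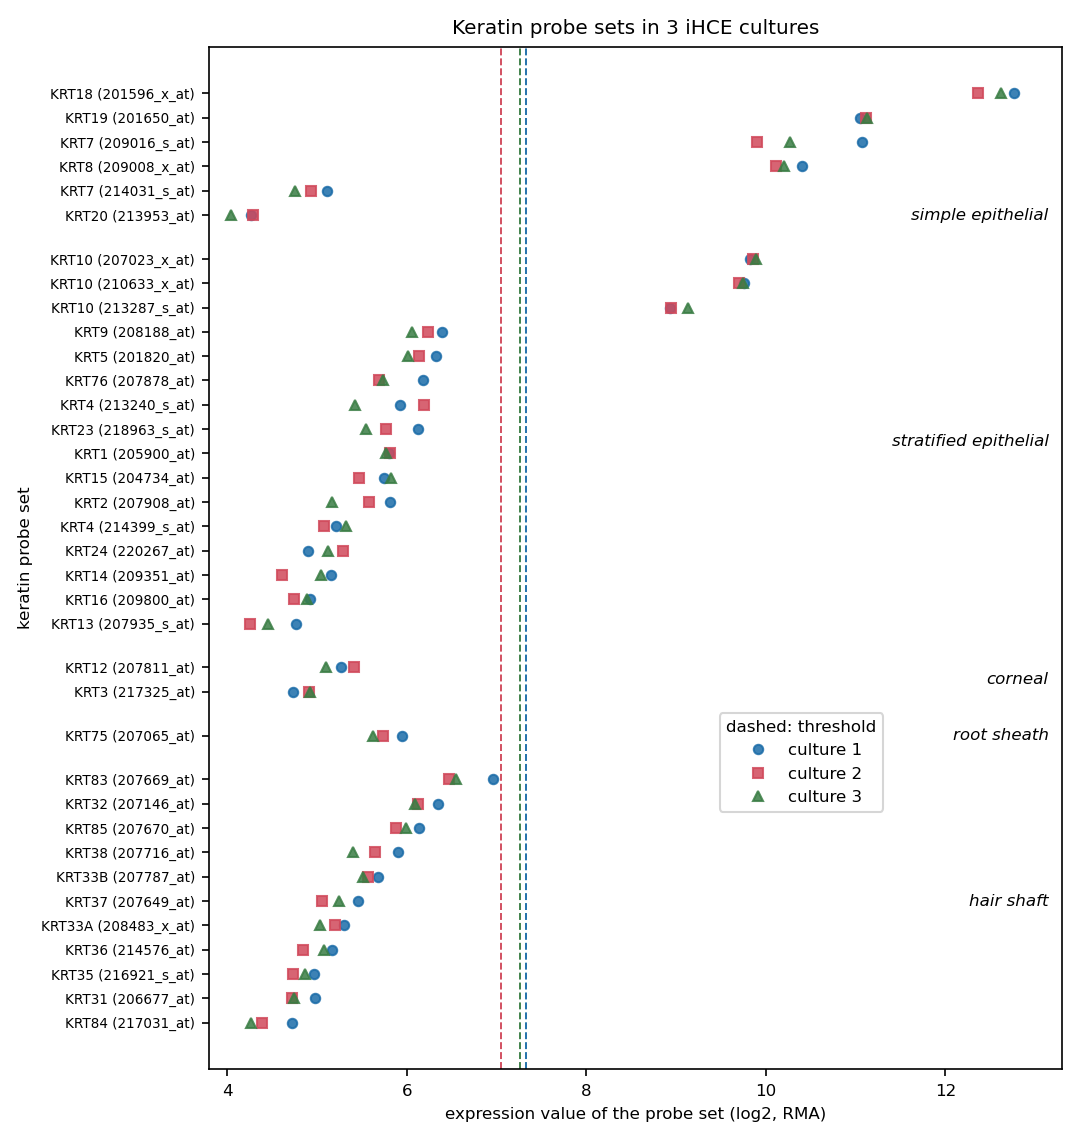
Log2 expression value (horizontal axis) of each of the 36 keratin probe sets (vertical axis, by group) in cultures 1, 2 and 3 (blue circles, red squares, green triangles), with the background threshold of each array as a dashed line of the same colour. The 7 probe sets of *KRT18*, *KRT19*, *KRT7*, *KRT8* and *KRT10* lie to the right of all 3 lines and the other 29 to the left.

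The smallest excess of a called probe set over its threshold was 1.61, for a probe set of *KRT10* in culture 1, where its value was 8.93. The nearest approach from below was that of *KRT83*, a hair shaft keratin, which at 6.96 in culture 1 lay 0.37 under the threshold.

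Promoter sequence is shown for *KRT8* and *KRT10*, the called keratins for which the RefSeq promoter table holds a sequence, and for the uncalled corneal pair *KRT3* and *KRT12*. Each line gives the 250 bases before the RefSeq gene start in assembly GRCh38.p14, 5′ to 3′ on the minus strand, where all 4 genes lie. The capitals mark TATAAA, the exact letters searched for as a TATA box. Variants of it were not searched or marked. The stretches are chr12:52926470-52926719 for *KRT8*, chr17:40822615-40822864 for *KRT10*, chr12:52796118-52796367 for *KRT3* and chr17:40867224-40867473 for *KRT12*.
KRT8: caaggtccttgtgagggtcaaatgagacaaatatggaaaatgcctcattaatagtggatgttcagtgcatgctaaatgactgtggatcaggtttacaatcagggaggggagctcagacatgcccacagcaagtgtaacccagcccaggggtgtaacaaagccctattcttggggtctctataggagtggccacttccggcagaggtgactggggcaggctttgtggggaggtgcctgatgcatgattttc
KRT10: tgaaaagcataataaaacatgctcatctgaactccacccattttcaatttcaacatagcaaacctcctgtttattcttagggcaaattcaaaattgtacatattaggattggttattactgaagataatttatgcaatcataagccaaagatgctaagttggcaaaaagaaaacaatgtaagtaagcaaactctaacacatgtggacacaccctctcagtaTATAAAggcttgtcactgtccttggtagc
KRT3: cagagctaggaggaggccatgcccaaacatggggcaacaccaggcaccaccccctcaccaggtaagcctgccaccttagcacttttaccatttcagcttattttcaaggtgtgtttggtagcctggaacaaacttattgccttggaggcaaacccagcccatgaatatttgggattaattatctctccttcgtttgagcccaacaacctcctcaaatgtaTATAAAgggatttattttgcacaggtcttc
KRT12: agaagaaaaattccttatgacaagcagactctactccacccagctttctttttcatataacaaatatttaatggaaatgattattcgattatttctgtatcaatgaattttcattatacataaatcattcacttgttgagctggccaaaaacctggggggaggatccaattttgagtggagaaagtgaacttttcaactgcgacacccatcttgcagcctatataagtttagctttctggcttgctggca

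TATAAA began 29 bases before the start of *KRT10*, which was above background, and 30 bases before that of *KRT3*, which was not. The motif search used both strands of the whole table sequence, from 250 bases before to 50 after the start, and the 3 motifs share no letters that make one part of another. A keratin gene counted if any sequence listed for it held the motif. The share of all was taken over promoter sequences, so the units differ where a gene has several. TATAAA was found in 21 of 34 keratin genes with a sequence (61.8%), against 11.5% of all 35116 promoters. GGGCGG, the letters of an Sp1 box, was found in 6 of the 34 (17.6%), against 45.0% of all. TGANTCA, the letters of an AP-1 site, was found in 0 of the 34, against 7.71% of all. The sequences of *KRT8* and *KRT12* held none of the 3 motifs in these exact letters. That of *KRT12* holds the close variant tatataag near the end of the printed stretch, so it is not shown to lack a TATA box. Of the 22 keratin genes with both a sequence and a measured value, 11 held TATAAA and 11 did not. Each side held 1 keratin above background, *KRT10* with the motif and *KRT8* without it.

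The called simple keratins form 2 pairs of a type I and a type II chain. *KRT18*, the type I partner of *KRT8*, read 12.76, 12.37 and 12.63 in cultures 1, 2 and 3. Its mean of 12.58 ± 0.199 (SD, n = 3) exceeded the mean threshold by 5.37 ± 0.0986 (SE; adjusted p = 1.8e-08, limma, one-sided). *KRT8*, the type II keratin of simple epithelia, read 10.40, 10.11 and 10.20. Its mean of 10.24 ± 0.149 (SD, n = 3) exceeded the threshold by 3.03 ± 0.0895 (SE; adjusted p = 8.8e-08, limma). Both members of this first keratin pair of the embryo were thus called in each culture, and the lowest value of each came from culture 2.

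*KRT19*, a type I keratin of ducts and simple epithelia that lacks most of the usual tail, read 11.05, 11.12 and 11.13, a mean of 11.10 ± 0.0417 (SD, n = 3). It exceeded the mean threshold by 3.89 ± 0.0775 (SE; adjusted p = 2.1e-08, limma). *KRT7*, a type II keratin of ducts and glands, read 11.08, 9.90 and 10.27 at its brighter probe set, a mean of 10.42 ± 0.601 (SD, n = 3). The excess over the threshold was 3.21 ± 0.204 (SE; adjusted p = 4.2e-06, limma). Its other probe set read 5.11, 4.93 and 4.75 and was not above background on any array, so the call of *KRT7* rests on 1 of its 2 probe sets. *KRT20*, a type I keratin of the intestinal lining, urothelium and Merkel cells, read 4.26, 4.28 and 4.04 and was the simple keratin not above background.

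The probe sets of *KRT18* and *KRT8* carry the maker's suffix _x_at, which marks probes that may also bind other transcripts. The brighter one of *KRT7* carries _s_at, which marks probes shared by several transcripts. Every probe set of *KRT10* carries _x_at or _s_at. RefSeq lists 68 pseudogenes named after *KRT18*, 52 after *KRT8*, 5 after *KRT19*, and 0 after *KRT7* or *KRT10*. How much signal came from such copies was not tested. Without the probe sets of either suffix 1 of 23 keratin genes was above background, *KRT19*, and *KRT18*, *KRT8*, *KRT7* and *KRT10* had no probe set left.

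Of 13 measured stratified epithelial keratins 1 was above background, against 42.0% of all genes. *KRT10*, which pairs with *KRT1* when epidermal cells leave the basal layer, was above it at all 3 of its probe sets. The brightest read 9.82, 9.85 and 9.89 in cultures 1, 2 and 3, and its mean of 9.86 ± 0.0353 (SD, n = 3) exceeded the threshold by 2.65 ± 0.0772 (SE; adjusted p = 8.4e-08, limma). The other 2 read 9.75, 9.70 and 9.74 and 8.93, 8.95 and 9.14. The partner *KRT1* read 5.80, 5.81 and 5.77 and was not above background.

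The basal and mucosal keratins stayed under the thresholds. *KRT5*, the type II keratin of basal cells, read 6.33, 6.14 and 6.01, and its partner *KRT14* read 5.16, 4.61 and 5.04. *KRT15*, a basal type I keratin also known from limbal and hair follicle stem cells, read 5.74, 5.47 and 5.82. *KRT4*, a type II keratin of non-cornified mucosa, read 5.93, 6.19 and 5.42 at one probe set and 5.21, 5.08 and 5.32 at the other, and its partner *KRT13* read 4.77, 4.25 and 4.45. *KRT16*, a type I keratin of wounded and rapidly dividing epidermis, read 4.92, 4.75 and 4.89. Means of the other uncalled stratified keratins were 6.23 for *KRT9* of palms and soles, 5.87 for *KRT76* of the palate, 5.81 for *KRT23*, 5.52 for the epidermal *KRT2* and 5.10 for *KRT24*.

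Neither corneal keratin was above background on any array. *KRT3* read 4.74, 4.91 and 4.92, a mean of 4.86 ± 0.103 (SD, n = 3), and *KRT12* read 5.27, 5.41 and 5.10, a mean of 5.26 ± 0.155 (SD, n = 3). The label of the line was checked against 6 markers of corneal epithelium. They were the keratins *KRT3*, *KRT12*, *KRT5* and *KRT14* with the eye transcription factor *PAX6* and the corneal crystallin *ALDH3A1*. Of these markers 0 of 6 were above background, against 42.0% of all genes. *PAX6* read 7.11, 6.55 and 6.83 and *ALDH3A1* 5.68, 5.26 and 5.44. These markers of the labelled cell type were thus not detected above background by this call. A value under the threshold does not show that a transcript is absent.

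No measured hair keratin was above background, and 6 of the 17 listed hair shaft keratins, *KRT34*, *KRT39*, *KRT40*, *KRT81*, *KRT82* and *KRT86*, were not analysed here. Among 11 measured keratins of the hair shaft the means ran from 4.45 for *KRT84* to 6.66 for *KRT83*, both type II. The others were *KRT85*, at 6.13, 5.88 and 5.99 in the cultures, and the type I keratins with means of 6.19 for *KRT32*, 5.65 for *KRT38*, 5.58 for *KRT33B*, 5.25 for *KRT37*, 5.18 for *KRT33A*, 5.03 for *KRT36*, 4.85 for *KRT35* and 4.81 for *KRT31*. *KRT75*, the one measured keratin of the root sheath among 9 listed, had a mean of 5.77 ± 0.160 (SD, n = 3).

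By chain type, 3 of 20 measured type I keratins and 2 of 12 type II keratins were above background, against 42.0% of all genes. Of 11 listed partner pairs both chains were measured in 7. Both were above background in the pairs *KRT8* with *KRT18* and *KRT7* with *KRT19*. Neither was above it in 4 pairs, *KRT5* with *KRT14*, *KRT3* with *KRT12*, *KRT4* with *KRT13* and *KRT85* with *KRT35*. In the pair *KRT1* with *KRT10* the type I chain alone was called.

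Keratin genes lie in a block on chromosome 12, which holds the type II genes and *KRT18*, and in one on chromosome 17, which holds the other type I genes. In the gene order of RefSeq the called keratins of chromosome 12 stood at the edges of the block, with *KRT7* at place 2 of 27 and *KRT8* and *KRT18* at places 26 and 27. Of the 23 keratin genes between *KRT7* and *KRT8*, 10 were measured and 0 were above background. On chromosome 17 the called genes lay inside the block of 27, *KRT10* at place 6 and *KRT19* at place 23, and 17 other measured keratins there were not called.

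**Figure D2:**
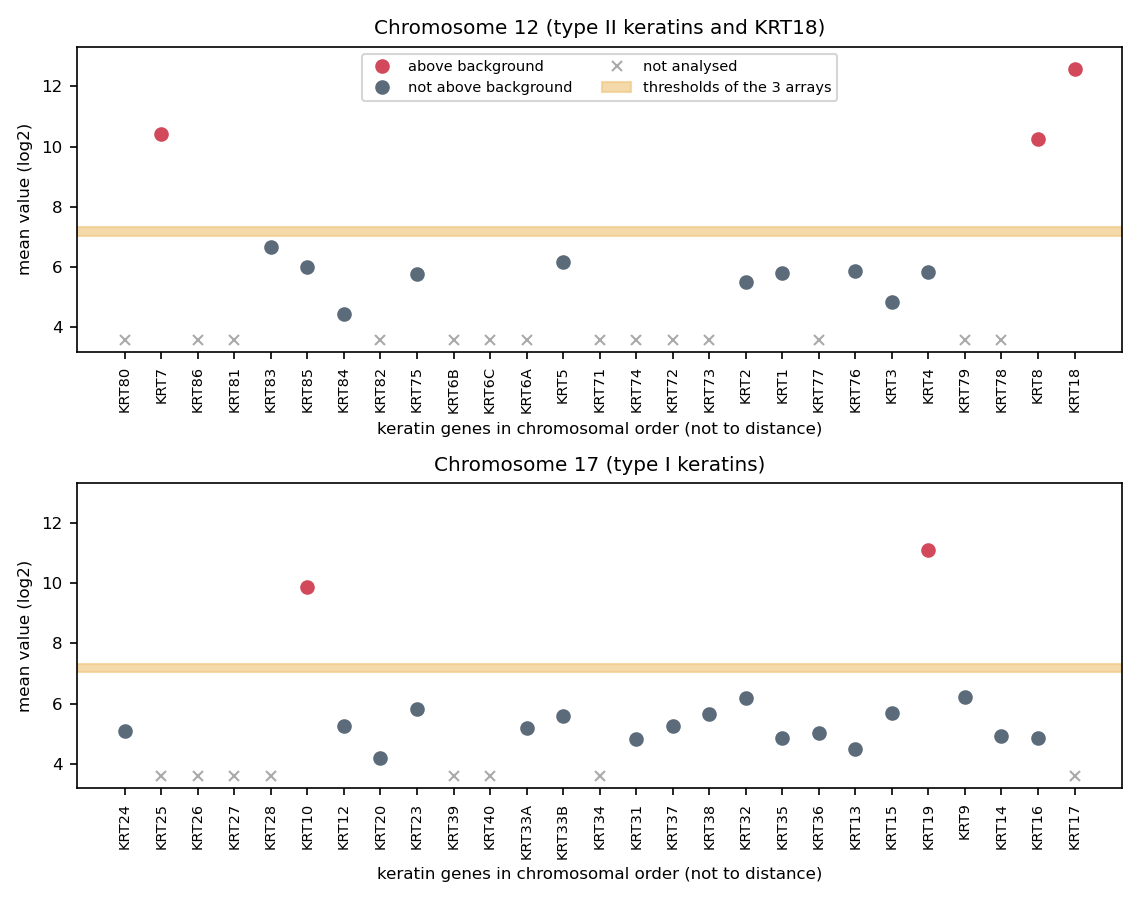
Mean log2 value over 3 cultures (vertical axis) of the keratin genes in their order along chromosomes 12 and 17 (horizontal axis, not to distance). Red points are above background, dark points are not, grey crosses were not analysed, and the band spans the thresholds of the 3 arrays. The called genes sit at both edges of the chromosome 12 block and inside the chromosome 17 block.

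Of the keratins above background *KRT7* varied most between the cultures. Its range was 1.18 log2 units, and 0.855% of all genes above background had a larger SD. Culture 1 exceeded the mean of cultures 2 and 3 by 0.99, while culture 2 lay 0.37 under culture 3. The corresponding share was 31.1% for *KRT18*, 48.1% for *KRT8*, 94.1% for *KRT19* and 95.8% for *KRT10*, so the last of these were among the steadier genes of the arrays. The median SD was 0.161 over keratin probe sets and 0.143 over all single-gene probe sets.

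**Figure D3:**
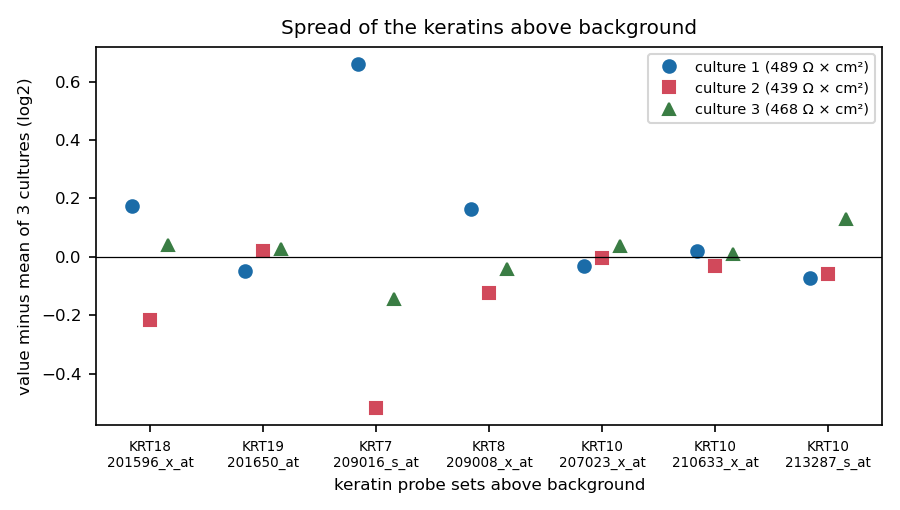
Value of each of the 7 keratin probe sets above background (horizontal axis) in cultures 1, 2 and 3 minus their mean (vertical axis, log2 units), with the electrical resistance of each culture in the key. *KRT7* spreads over 1.18 log2 units, and culture 1 is highest and culture 2 lowest in *KRT7*, *KRT8* and *KRT18*.

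*KRT7*, *KRT8* and *KRT18* shared an order over the cultures, with culture 1 highest, culture 3 next and culture 2 lowest. This is also the order of the resistances of 489, 468 and 439 Ω × cm2. The same order was found in 1180 of all genes above background (23.5%), and 3 cultures allow no test of a relation. The background thresholds took the order too, at 7.33, 7.26 and 7.04. Read as the excess over each array's threshold, *KRT7* and *KRT18* kept it, while *KRT8* was at 3.08, 3.07 and 2.94 in cultures 1, 2 and 3. *KRT19* and the brightest probe set of *KRT10* did not take the order, and 1 of the other *KRT10* probe sets did, over a range of 0.0492. Among the 27 keratin genes not above background culture 1 was highest in 20 (74.1%), against 40.3% of all genes not above background.

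Some control values also set the array of culture 1 apart. All 24 probe sets of the poly-A control transcripts, which are added to the RNA before labelling, were lowest in culture 1, where their median was 5.44, against 6.82 in culture 2 and 6.67 in culture 3. The 3′ minus 5′ difference of *GAPDH*, which rises as RNA breaks down, was 1.64, 1.34 and 1.28, whereas that of *ACTB* was 2.99 in culture 1 and 3.003 in culture 3, and here culture 2, at 3.25, lay apart. On all 3 arrays the 3′ end of both genes read higher than the 5′ end. The part of these differences in the keratin values, of culture 1 or of all cultures, was not tested. Each of the 5 called keratin genes was also called with any 1 of the 3 cultures left out. This follows from the call, which needs every array to pass its own threshold, and is no further support.

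A further 6 keratin probe sets had a range of at least 0.5 log2 units, and none of them was above background. They belonged to *KRT4* (0.77), *KRT2* (0.65), *KRT23* (0.58), *KRT14* (0.55), *KRT13* (0.52) and *KRT38* (0.51). Culture 1 was highest in 5 of them, and culture 2 in *KRT4*.

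Genes that anchor or organise keratin filaments were above background in 10 of 14 measured cases (71.4%), against 42.0% of all genes. The list was chosen with earlier results of these data known, so the difference in share was not tested. With the highest panel value as the threshold 4 of 14 were called, against 14.7% of all genes. Without _x_at and _s_at probe sets it was 6 of 9, against 37.5%. With a gene's probe sets averaged the difference was smaller, at 7 of 14 against 41.5% of all genes. Among them were desmoplakin (*DSP*, 10.19 ± 0.101, SD, n = 3), which ties keratin to desmosomes, plakoglobin (*JUP*, 7.96 ± 0.324), periplakin (*PPL*, 9.56 ± 0.135), the linkers plectin (*PLEC*, 8.39 ± 0.0653) and *DST* (8.55 ± 0.0131), and stratifin (*SFN*, 13.19 ± 0.0733). *PKP3*, *MACF1*, *CSNK1A1* and *TRADD* were called as well. The desmosomal plakophilins *PKP1* (5.63 ± 0.248) and *PKP2* (6.35 ± 0.185), envoplakin (*EVPL*, 6.60 ± 0.297) and epiplakin (*EPPK1*, 6.67 ± 0.164) were not above background.

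Of the genes that bundle keratin or build the cornified layer 0 of 8 were above background, filaggrin (*FLG*) reading 3.75, 3.97 and 3.86. The transglutaminase *TGM2* was above it on 2 arrays, and 1 of the 8 genes was called under 4 of the alternatives, one of them the set without culture 1. Of the other intermediate filament genes 6 of 15 (40.0%) were called, near the 42.0% of all genes, and 1 of 15 with the highest panel value as the threshold. These were the nuclear lamins *LMNA* (9.22 ± 0.0861, SD, n = 3), *LMNB1* (7.36 ± 0.171) and *LMNB2* (9.55 ± 0.657), and *SYNM* (8.70 ± 0.120), *INA* (9.16 ± 0.212) and *PRPH* (7.72 ± 0.332), which encode synemin, internexin and peripherin. Vimentin (*VIM*), the filament of mesenchymal cells and of many cultured lines, read 6.11, 5.83 and 6.27 and was not above background.

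Among transcription factors known to act on epithelial keratin genes 8 of 12 measured (66.7%) were above background, against 42.0% of all genes. This list, too, was chosen with earlier results of these data known. The count was 3 of 12 with the highest panel value as the threshold, against 14.7% of all genes. Without _x_at and _s_at probe sets it was 5 of 10, against 37.5%. With a gene's probe sets averaged the difference was smaller, at 6 of 12 against 41.5% of all genes. The called genes included *TFAP2A* (10.82 ± 0.0672, SD, n = 3), *TFAP2C* (9.29 ± 0.0691), *CEBPB* (10.59 ± 0.197), *KLF4* (8.78 ± 0.272) and *ELF3* (9.13 ± 0.109), with *NFIB*, *KLF5* and *GRHL2*. *PAX6*, *ESR1* and *SP1* were not, and *FOXA1*, at 6.58, 7.45 and 8.10, was above the threshold in cultures 2 and 3. Of 6 measured regulators of hair keratins, among them *HOXC13* (6.12 ± 0.188), *FOXN1* (5.75 ± 0.131) and *LEF1* (5.68 ± 0.0976), 0 were above background.

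**Figure D4:**
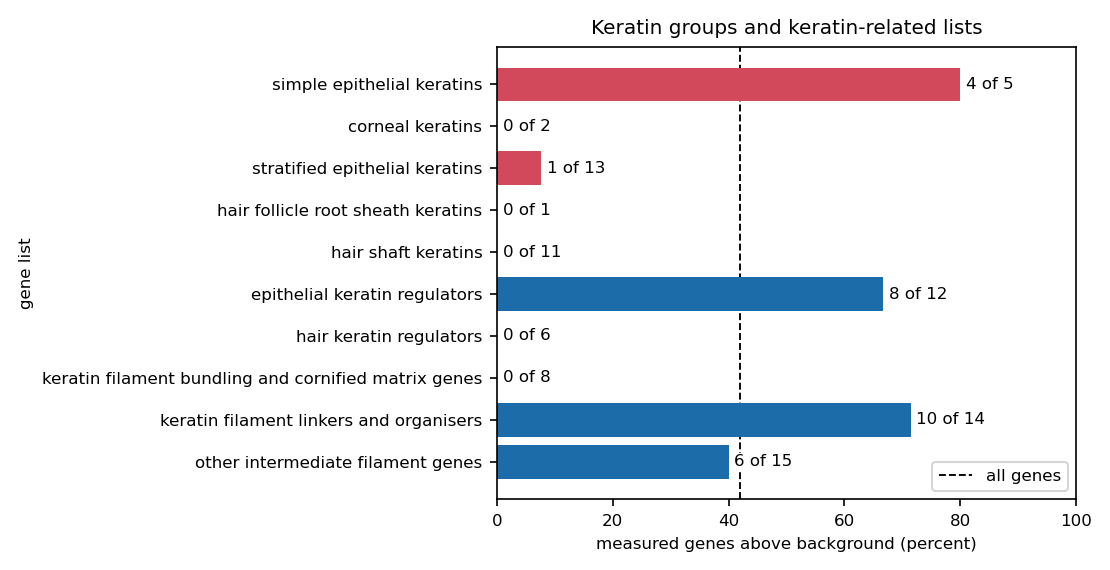
Percent of measured genes above background on all 3 arrays (horizontal axis) in each keratin group (red bars) and each keratin-related list (blue bars), with the counts beside the bars and the share of all genes, 42.0%, as a dashed line. Bars of the simple keratins, the filament linkers and the epithelial regulators pass the line, and no gene of the corneal, root sheath and hair shaft keratins, the hair regulators or the cornified matrix list was called. The lists were chosen with earlier results of these data known.

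Markers of other cell types were mostly not above background. The counts were 0 of 5 keratocyte, 0 of 3 melanocyte, 0 of 4 vascular endothelial and 1 of 3 immune markers. Of all genes 42.0% were above background. The endothelial markers, *PECAM1*, *VWF*, *CDH5* and *TEK*, are those of blood vessels, and the endothelium of the cornea was not checked. The immune marker called was *CD74*, at 7.49 ± 0.264 (SD, n = 3), which other cells can also express. It was not called with the highest panel value or the panel median plus 3 scaled MADs as the threshold, nor by limma against each array's threshold. *COL1A1* of the keratocyte list was above the threshold on 1 array and *TEK* of the endothelial list on 2. With the 90th percentile of the panel, without _x_at and _s_at probe sets or without culture 3, 1 of 4 endothelial markers was called.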

How the data were processed

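RNA of 3 iHCE cultures, 1 Affymetrix human expression array each, was analysed. Per the submitters' processing notes the authors used RMA in R 2.8.0 and deposited log2 values of 22283 probe sets. RMA subtracts background, equalizes the distributions of the arrays and combines the probes of a set, which removes differences in total brightness and compresses low values. Whether that run also held the tissue arrays could not be settled here. An array gives no read depth, and 3 arrays limit the precision.

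Probe sets were named from the platform annotation, and symbols were brought up to date by Entrez number from RefSeq (assembly GRCh38.p14). Of these 19071 had 1 gene (19065 without control probe sets), 1043 had several and 2169 were not listed, and for 12 with 1 gene RefSeq had no entry and the annotation's symbol was used. Each gene was read at its probe set of highest mean. The panel of other tissues held 68 genes, 59 of them measured.

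The excess over the mean of the 3 thresholds was tested one-sided with limma 3.58.1 in R 4.3.3 over all single-gene probe sets, with Benjamini-Hochberg adjustment, treating the thresholds as known. This version was chosen after seeing that the planned test against each array's own threshold gave all probe sets a single shared SE. The calls and the limma test were tested on simulated data. Any measured keratin could be named, and of the other lists any gene beside the count of its list. The keratins, panel and lists were chosen with earlier results of these data known. Alternatives covered the threshold (the panel's 90th percentile, maximum, or median plus 3 scaled MADs), averaging a gene's probe sets, no _x_at or _s_at probe sets, quantile normalization, both limma tests as the call, each culture left out, and the panel without *MBP*.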

Additional observations from a re-analysis of the deposited data

How the results depend on the processing

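Every keratin gene with a value kept its call under each of 12 alternatives, in 375 of 375 gene-by-setting values. Part of these were fixed in advance. Leaving out a culture could not change a call, since each keratin gene passed on all of the arrays or on none. A lower threshold could not remove a call, and a higher one could not add one. Of the counts and medians 118 of 126 stayed within 1.5 times the reported ones. The exceptions came from leaving out _x_at and _s_at probe sets, which left 1 of 23 keratin probe sets and 1 of 23 keratin genes above background, 1 of 2 simple, 0 of 9 stratified, 1 of 14 type I and 0 of 9 type II keratins, and 3137 of 8369 genes (37.5%). This setting removed every probe set of 4 of the 5 called keratins. The highest panel value as the threshold gave 1764 of all genes (14.7%) and still 5 keratin genes (15.6%), with 6 keratin probe sets, so the lower share of keratins was lost. Under it 4 of 14 filament linkers, 3 of 12 epithelial regulators and 1 of 15 other intermediate filament genes were called. The other alternatives gave 3727 to 5593 genes in all. Taking the mean over probe sets lowered the excess of *KRT7* to 0.85, still above background. Under the same setting 7 of 14 filament linkers and 6 of 12 epithelial regulators were called, against 41.5% of all genes. *CD74* lost its call under 3 alternatives, the cornified matrix list gained 1 gene under 4, among them the set without culture 1, and the endothelial list gained 1 under 3, among them the set without culture 3. The limma test against the threshold of each array called 7 keratin probe sets, 5 keratin genes and 4926 genes in all. The test against the mean threshold, with the *MBP* setting and all counts of related lists, was added after seeing the data, and it called 7, 5 and 5010. Adding probe sets annotated to several keratins was not run, since none was listed. No paired analysis was possible because the series has 1 group. The limits are the 3 arrays, the background panel, which sets the threshold, and the probe sets that may bind several transcripts.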

Other observations

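Some rows of the table named keratins or their pseudogenes outside the rule. A probe set shared by *KRT34*, a hair shaft keratin, and an uncharacterised locus read 4.89, 4.84 and 4.90 in cultures 1, 2 and 3. The *KRT19* pseudogene *KRT19P2* read 5.22, 5.03 and 4.68, and a probe set shared by *KRT19P2* and *MIR492* had a mean of 5.11 ± 0.0265 (SD, n = 3). The *KRT8* pseudogene *KRT8P12* read 5.91, 5.81 and 5.91. None of these was above the threshold on any array.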
